A study of Mus musculus with 28 samples.

Results

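The leukocyte beta-2 integrins and their ligands were followed at the mRNA level in splenic dendritic cells (DCs) of mice, purified by flow cytometry. Members were taken by gene symbol: the shared beta subunit Itgb2, its alpha partners Itgal, Itgam, Itgax and Itgad, and the ligands Icam1 and Icam2, which make 7 of the 24421 genes in each library. Bulk RNA-seq was done on untreated C57Bl/6 mice aged 6 to 12 weeks, and every group carried loxP-flanked Irf8 (Irf8fl/fl). Plasmacytoid DCs (pDC) carrying Itgax-cre beside Irf8fl/fl formed 1 group (pDC_TG, n = 4), and the others were, from Irf8fl/fl mice without the Cre, CD24+ conventional type 1 DCs (cDC1_WT, n = 8), CD172a+ conventional type 2 DCs (cDC2_WT, n = 8) and pDC (pDC_WT, n = 8). The source labels put a number after the mice of each library without saying whether a number means the same animals in different groups, and p-values measure the spread between these libraries. In pDC_TG the Cre recombinase is driven by Itgax regulatory sequence, so 1 of the members also supplies the regulatory sequence of the deleting transgene. Reads of the chromosomal Itgax locus and of any copy carried by the transgene cannot be told apart in counts per gene. The labels do not say whether the transgene carries other genes of that locus. No group carried the Cre without loxP-flanked Irf8.

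Beta-2 integrins are heterodimers of the CD18 subunit, encoded by Itgb2, with 1 of 4 alpha subunits, and an alpha subunit needs CD18 to reach the cell surface. Itgal encodes CD11a (LFA-1), which binds ICAM-1 and ICAM-2 and holds leukocytes to other leukocytes and to endothelium. Itgam encodes CD11b (Mac-1, complement receptor 3), the usual surface marker of myeloid cells and of splenic cDC2. Itgax encodes CD11c, which is high on conventional DCs and lower on mouse pDC, and Itgad encodes CD11d, known in mouse spleen from red pulp macrophages. ICAM-1, encoded by Icam1, is induced by NF-kappaB signalling, whereas ICAM-2, encoded by Icam2, is a constitutive ligand of LFA-1 on endothelium and leukocytes.

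Levels below are CPM, the read counts of a gene scaled to the same TMM-adjusted library total, given as mean ± SD, and tests are edgeR's quasi-likelihood test in 1 fit of all 28 libraries with Benjamini-Hochberg adjustment over the 13159 genes that passed the filter on low counts. All 7 members passed that filter, Itgam through the groups in which it was high. Reads counted in genes numbered 22805201 to 28725550 a library in pDC_TG, 23592099 to 30152305 in cDC1_WT, 20696141 to 29351715 in cDC2_WT and 17299285 to 30787679 in pDC_WT. Irf8, the targeted gene, was at 1489.9, 1402, 1166 and 1787 CPM in pDC_TG replicates 1 to 4, against a lowest, median and highest of 5379, 6317 and 6537 CPM in pDC_WT (log2FC -2.07, SE 0.13, adjusted p = 4.43e-13). The pDC labels were checked against markers, and the summed level of 7 pDC markers was 4954 to 6078 CPM in pDC_TG and 6830.5 to 8919 CPM in pDC_WT, against at most 124 CPM in cDC1_WT and 261 CPM in cDC2_WT. The sums of pDC_TG and pDC_WT thus did not overlap. Of the 7 markers, 2 were called lower in pDC_TG than in pDC_WT, Klk1 (log2FC -2.15) and Bst2 (log2FC -0.64). None was higher and 5 did not pass, where 14.8% of all tested genes were called. pDC_TG replicate 4 stood apart by its neutrophil transcripts, with 202 CPM summed over 9 markers, against 1.46, 1.66 and 7.36 CPM in replicates 1, 2 and 3 and 1.80 to 5.19 CPM in pDC_WT. The design text speaks of 4 replicates, whereas each WT group had 8 libraries, so calls of members that were lost or gained with WT replicates 1 to 4 or 5 to 8 alone are given beside the result.

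Itgb2, the subunit that every member of the family needs, was lower in pDC_TG than in each control population. It was at 419, 414, 317 and 356 CPM in pDC_TG replicates 1 to 4, against a lowest, median and highest of 402, 495 and 592 CPM in pDC_WT. Replicates 3 and 4 lay below every pDC_WT library and replicates 1 and 2 within their range. Itgb2 averaged 376 ± 48.8 CPM in pDC_TG (n = 4) and 502 ± 59.7 CPM in pDC_WT (n = 8), a fall with log2FC -0.42 (SE 0.10, adjusted p = 0.00378). In such bulk samples, fewer cells that express a gene and less RNA per cell cannot be told apart. The means of cDC1_WT, 592 ± 50.2 CPM, and of cDC2_WT, 967 ± 114 CPM, were both higher, and their libraries did not overlap with those of pDC_TG (log2FC -0.65, adjusted p = 2.31e-06, and -1.36, adjusted p = 2.88e-12). Against WT replicates 5 to 8 alone, the difference from pDC_WT missed the threshold (log2FC -0.32, adjusted p = 0.0587).

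Itgal, the LFA-1 alpha subunit, varied more among the pDC_TG libraries than Itgb2 did. It was at 509, 434, 279 and 310 CPM in pDC_TG replicates 1 to 4, against a lowest, median and highest of 362, 496 and 689 CPM in pDC_WT. The first pair of pDC_TG libraries lay inside the pDC_WT range and the other pair below all of it. The means of 383 ± 107 CPM in pDC_TG and 502 ± 112 CPM in pDC_WT did not pass (log2FC -0.39, SE 0.17, 95% interval -0.73 to -0.05, adjusted p = 0.138). The result turned on which libraries were set against each other. pDC_WT replicates 1 to 4 averaged 593 ± 72.4 CPM and replicates 5 to 8 averaged 411 ± 43.2 CPM, without overlap, as for 4.5% of all tested genes in pDC_WT. Against WT replicates 1 to 4 alone the fit gave log2FC -0.63 (adjusted p = 0.0144), and against WT replicates 5 to 8 it gave -0.10 (adjusted p = 0.806). Without pDC_TG replicate 1 the fall also passed (log2FC -0.56, adjusted p = 0.0407). Both conventional populations held less Itgal on average than either pDC group: cDC1_WT averaged 229 ± 46.0 CPM and cDC2_WT 148 ± 20.0 CPM. The libraries of pDC_TG and cDC1_WT overlapped (log2FC of pDC_TG over cDC1_WT 0.74, adjusted p = 0.000355). Against a change of 1.5-fold that difference did not pass (adjusted p = 0.159).

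Itgax, the CD11c gene, rose in pDC_TG, to a mean near that of cDC1_WT. It was at 422, 391, 446 and 371 CPM in pDC_TG replicates 1 to 4, against a lowest, median and highest of 107, 148 and 232 CPM in pDC_WT, so the groups did not overlap. The means were 408 ± 32.9 CPM in pDC_TG and 157 ± 50.2 CPM in pDC_WT (log2FC 1.38, SE 0.17, adjusted p = 3.73e-07). cDC1_WT held 442 ± 70.0 CPM, and the difference of pDC_TG from it had log2FC -0.12 with a 95% interval of -0.45 to 0.22 (adjusted p = 0.598), which does not show that the levels are equal. With total counts alone as scaling this small difference had the other sign (log2FC 0.18), as it did against WT replicates 5 to 8 (0.04). cDC2_WT held more, at 862 ± 113 CPM, and its lowest library, at 672 CPM, was above every pDC_TG library. Over 6 cDC1 markers the summed level was 47.7 to 65.5 CPM in pDC_TG, 2549.5 to 3188 CPM in cDC1_WT and 138 to 213 CPM in pDC_WT, with Batf3 at 0 in pDC_TG, and 1 marker was called higher and 4 lower against pDC_WT. Of all tested genes, 14.8% were called between pDC_TG and pDC_WT. The defining cDC1 marker gene Xcr1 was at 1.31 CPM in pDC_TG, 1154 CPM in cDC1_WT and 1.96 CPM in pDC_WT.

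Itgam, the CD11b gene, was nearly without reads in control pDC and was present in every pDC_TG library. It was at 36.3, 35.5, 19.1 and 36.5 CPM in pDC_TG replicates 1 to 4, or 575 to 1145 reads a library, against a lowest, median and highest of 0, 0.0644 and 1.75 CPM in pDC_WT. Among the 8 pDC_WT libraries, replicates 2 and 4 held 49 and 31 reads and the other 6 held 3 or fewer, with 0 in replicate 8, where counting error alone allows up to 3. The means were 31.9 ± 8.49 CPM in pDC_TG and 0.401 ± 0.663 CPM in pDC_WT (log2FC 6.23, SE 0.65, adjusted p = 3.29e-08). The size of the fold depended on that low baseline: log2FC was 7.16 without pDC_WT replicate 2, 6.64 without pDC_WT replicate 4, 5.32 against WT replicates 1 to 4 and 9.25 against WT replicates 5 to 8. cDC2_WT, the CD11b+ population, held 155 ± 24.1 CPM, still above pDC_TG (log2FC of pDC_TG over cDC2_WT -2.29, SE 0.60, adjusted p = 0.00241), and cDC1_WT held 1.41 ± 1.30 CPM.

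Neutrophils and monocytes also express Itgam, and the neutrophil markers moved with 1 library. Itgam was as high in pDC_TG replicates 1 and 2, whose summed neutrophil marker levels were within or below the pDC_WT range, as in replicate 4, and without replicate 4 its log2FC was 6.15 (adjusted p = 1.88e-07). Of 9 neutrophil markers, 5 of 7 tested were called higher in pDC_TG and none lower, and Camp was at 0 in pDC_WT. The cDC2 marker Clec4a4 was at 0.0269 CPM in pDC_TG, 218 CPM in cDC2_WT and 0.0837 CPM in pDC_WT, and the summed level of 6 cDC2 markers was 1419 to 1664 CPM in pDC_TG, 2490.4 to 2932 CPM in cDC2_WT and 1798 to 2576 CPM in pDC_WT. No cDC2 marker of the list was at 0 in pDC_TG. Against pDC_WT, 1 was called higher, Irf4, and 2 lower, Cd209a and Cd4. Between cDC2_WT and pDC_WT, 2 of these 6 markers were higher in cDC2_WT, 1 was lower and 3 did not pass. The sums of cDC2_WT and pDC_WT libraries overlapped, so this sum does not separate cDC2 from pDC. Irf4 was at 434 CPM in pDC_TG, 221 CPM in cDC2_WT and 146 CPM in pDC_WT (log2FC 1.58, adjusted p = 0.000775). The macrophage and monocyte genes Adgre1 and Csf1r, which encode F4/80 and the receptor of CSF1, were at 0.357 and 5.03 CPM in pDC_TG, 370.4 and 486 CPM in cDC2_WT, and 0.559 and 3.77 CPM in pDC_WT. Of 12 monocyte and macrophage markers, 10 were called higher and 2 lower in cDC2_WT than in pDC_WT. Between these groups 57.1% of all tested genes were called. The part of monocytes or macrophages in the cDC2_WT levels of the members was not tested. NK cells express Itgam too: of 5 NK markers 3 were tested and 1 was called higher, Klrd1, at 676 CPM in pDC_TG and 226 CPM in pDC_WT, and it makes up nearly all of the summed level of 533 to 767 CPM in pDC_TG and 132 to 323 CPM in pDC_WT. Ncr1, Klrb1c and Nkg7 were each below 0.16 CPM on average in pDC_TG, and Ncr1 and Klrb1c were at 0 in pDC_WT. Of the B cell and T cell markers tested, none was called by edgeR (4 and 3 tested). Over all tested genes, 14.8% were called in pDC_TG versus pDC_WT. With so few markers, the lack of calls says little about B or T cells. The part of Klrd1 or of neutrophil transcripts in the integrin results was not tested beyond these values. A second annotated protein-coding gene, Gm49368, shares 3450 of the 5024 exonic bases of Itgam (68.7%) on the same strand. It has no row in the deposited counts, so whether its reads were counted as Itgam could not be read from the files.

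Itgad, the CD11d gene, was highest in pDC_TG among the 4 groups. It was at 32.0, 50.8, 62.9 and 56.2 CPM in pDC_TG replicates 1 to 4, against a lowest, median and highest of 8.17, 12.3 and 16.5 CPM in pDC_WT, so the groups did not overlap. The means were 50.5 ± 13.3 CPM in pDC_TG and 12.6 ± 2.85 CPM in pDC_WT, a 4.02-fold rise (log2FC 2.01, SE 0.43, adjusted p = 0.00112). The conventional populations held far less, 1.71 ± 1.17 CPM in cDC1_WT and 2.98 ± 0.933 CPM in cDC2_WT, and both were lower than control pDC (log2FC -2.88 for cDC1_WT over pDC_WT, adjusted p = 2.8e-07, and -2.08 for cDC2_WT over pDC_WT, adjusted p = 3e-05). Itgad is thus ordered differently from Itgam and Itgax, which are highest in cDC2_WT. The red pulp macrophage genes Spic and C1qc were at 0.359 and 0.00832 CPM in pDC_TG and at 0.418 and 0.509 CPM in pDC_WT. Over the whole list of 12 monocyte and macrophage markers, 1 was called higher in pDC_TG than in pDC_WT, Mertk, and 2 lower, C1qb and C1qc, and none was at 0 in pDC_TG. Of all tested genes, 14.8% were called in that comparison. Mertk was at 0.624 ± 1.25 CPM in pDC_TG, with all its reads in 1 library, and at 0 in pDC_WT. The summed level was 2855 to 3612 CPM in pDC_TG and 2367 to 3203 CPM in pDC_WT. Most of it came from Ly6c2 and Ccr2, which pDC express as well (2708 and 589 CPM in pDC_TG, 2373 and 396 CPM in pDC_WT).

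Cox6a2, which encodes a cytochrome c oxidase subunit, lies within the span of Itgad on the opposite strand. It shares 70 exonic bases with Itgad, and the library protocol does not mark strand. In pDC_TG replicates 1 to 4, Cox6a2 reached 635, 690, 1331 and 1359 CPM, where Itgad was lowest in replicate 1, and at 271 to 517 CPM in pDC_WT. Cox6a2 and Itgad thus moved together between the pDC groups, and the part of Cox6a2 reads in the Itgad count was not tested. Also within that span, 4931431B13Rik shares 388 bases with Itgad and was at 0.171 CPM in pDC_TG and 0.137 CPM in pDC_WT. Gm17831, on the same strand, shares 330 bases with Itgad and the antisense Gm39091 shares 102, and neither has a row in the counts used here, so whether their reads were counted as Itgad could not be read from the files.

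Both ligands were lower in pDC_TG than in pDC_WT. Icam1 was at 134, 102, 85.7 and 122 CPM in pDC_TG replicates 1 to 4, against a lowest, median and highest of 125, 167 and 227 CPM in pDC_WT. Only pDC_TG replicate 1 reached into the pDC_WT range. The means were 111 ± 21.5 CPM in pDC_TG and 176 ± 34.0 CPM in pDC_WT (log2FC -0.67, SE 0.16, adjusted p = 0.00356). Conventional DCs held more, 476 ± 113 CPM in cDC1_WT and 345 ± 38.3 CPM in cDC2_WT, and neither overlapped with pDC_TG. The antisense gene Gm47079 shares 511 of the 4360 exonic bases of Icam1 (11.7%) and has no row in the counts used here. Whether its reads were counted as Icam1 could not be read from these counts. Icam2 was at 14.2, 12.8, 18.9 and 18.0 CPM in pDC_TG replicates 1 to 4, against a lowest, median and highest of 17.5, 24.6 and 37.7 CPM in pDC_WT. Replicates 1 and 2 lay below the pDC_WT range and replicates 3 and 4 at its lower end. The means were 16.0 ± 2.95 CPM in pDC_TG and 25.4 ± 6.05 CPM in pDC_WT (log2FC -0.67, SE 0.19, adjusted p = 0.0148). The Icam2 call was lost without pDC_TG replicate 1 (adjusted p = 0.0557), without pDC_TG replicate 2 (0.0758) and against WT replicates 5 to 8 alone (0.0805). Icam2 averaged 10.6 ± 2.40 CPM in cDC1_WT and 17.0 ± 1.39 CPM in cDC2_WT, so Icam2, like Itgal and Itgad, was higher in control pDC than in either conventional population when all libraries were fitted.

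**Figure D1:**
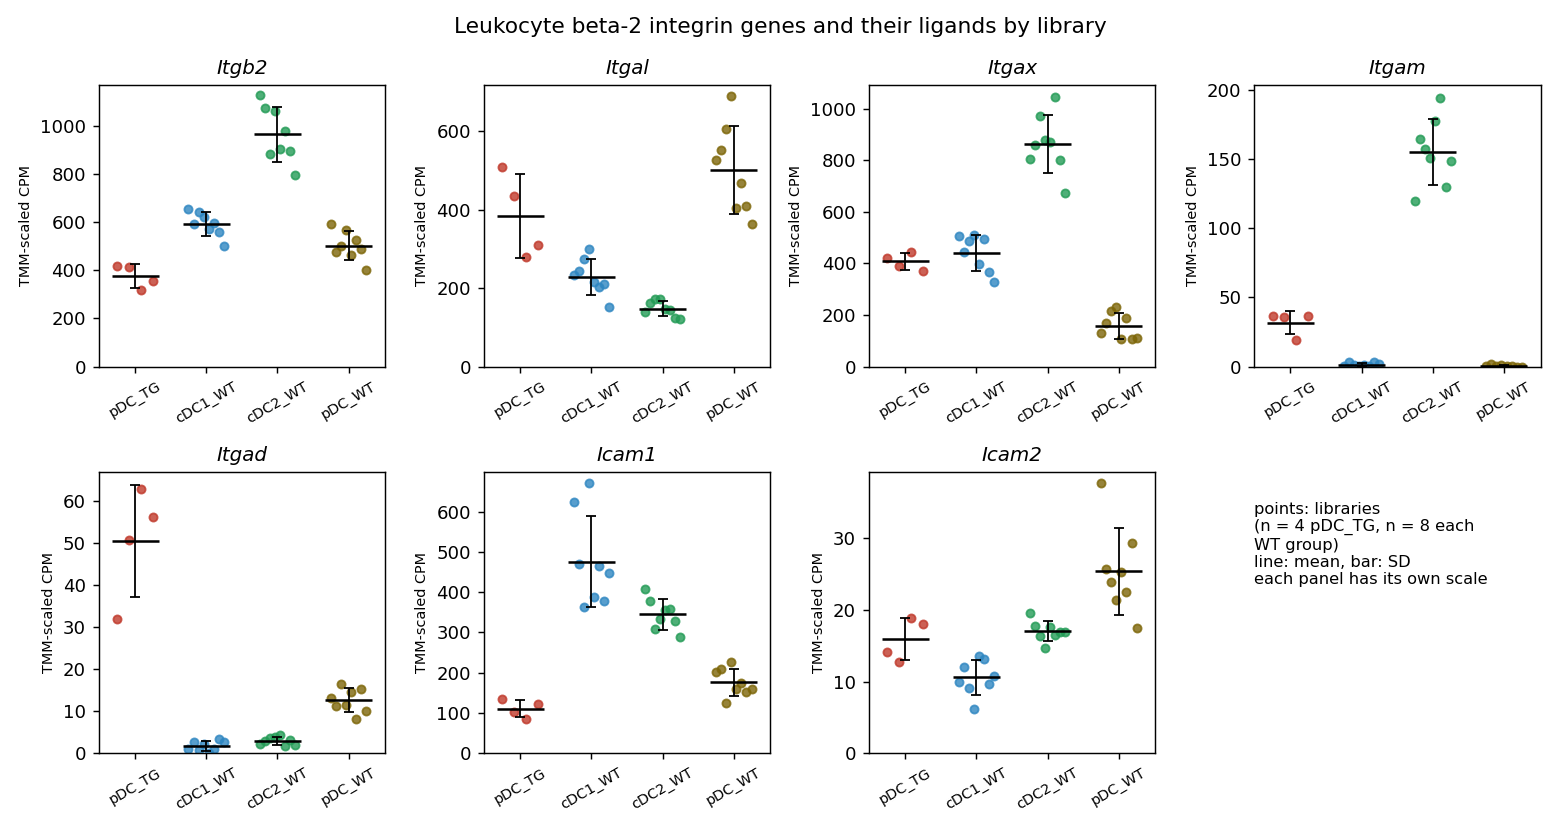
TMM-scaled CPM of each member in every library (points), with the mean (line) and SD (bar) of pDC_TG (n = 4), cDC1_WT, cDC2_WT and pDC_WT (n = 8 each); each panel has its own linear scale from 0. Itgax in pDC_TG lies near the height of cDC1_WT, Itgam lies between pDC_WT and cDC2_WT, and Itgad is highest in pDC_TG.

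Over the 7 members, 3 were higher in pDC_TG than in pDC_WT (Itgam, Itgax and Itgad), 3 were lower (Itgb2, Icam1 and Icam2) and 1, Itgal, did not pass. Of all tested genes, 14.8% were called in this comparison, 7.72% higher and 7.04% lower. The median log2FC was -0.39 over the members and 0.00 over all tested genes. The libraries of pDC_TG and pDC_WT did not overlap for 3 members, the same that were higher, and for 9.71% of all tested genes. Against a change of 1.5-fold rather than none, Itgam, Itgax and Itgad stayed past the threshold (adjusted p = 1.4e-07, 0.000354 and 0.0108), and Itgb2, Icam1 and Icam2 did not. Set against cDC1_WT, 4 members were higher in pDC_TG (Itgal, Itgam, Itgad and Icam2), 2 were lower (Itgb2 and Icam1) and Itgax did not pass (with WT replicates 5 to 8 alone Icam2 did not pass either, adjusted p = 0.0802), where 53.6% of all tested genes were called (27.1% higher, 26.6% lower). Set against cDC2_WT, Itgal and Itgad were higher in pDC_TG, Itgb2, Itgax, Itgam and Icam1 were lower, and Icam2 did not pass (log2FC -0.09, 95% interval -0.46 to 0.27), where 48.2% of all tested genes were called (24.3% higher, 23.9% lower). These comparisons share the pDC_TG libraries.

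**Figure D2:**
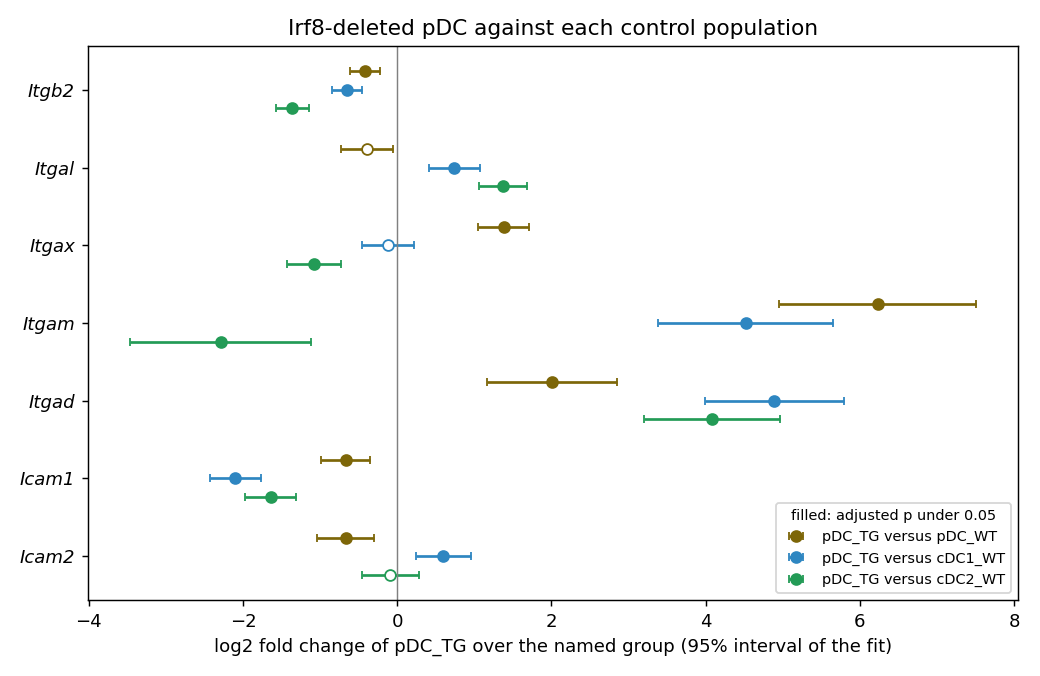
Log2 fold change of pDC_TG over pDC_WT, cDC1_WT and cDC2_WT for each member, with the 95% interval of the edgeR fit; filled points have an adjusted p under 0.05. Itgb2 and Icam1 lie below 0 in all 3 comparisons and Itgad above 0 in all 3, while Itgax crosses 0 against cDC1_WT.

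Among the control populations, all 7 members were called between cDC2_WT and pDC_WT and between cDC1_WT and pDC_WT. For cDC1_WT versus pDC_WT the number fell to 5 with total counts alone as scaling, 5 with WT replicates 1 to 4 alone and 6 with WT replicates 5 to 8 alone, and for cDC2_WT versus pDC_WT it was 6 with WT replicates 5 to 8 alone. Itgax, Itgam, Itgb2 and Icam1 were higher and Itgal, Itgad and Icam2 lower in both. Of all tested genes, 57.1% were called in cDC2_WT versus pDC_WT (28.8% higher, 28.3% lower) and 60.9% in cDC1_WT versus pDC_WT (30.6% higher, 30.3% lower). For Itgb2 the order from high to low was cDC2_WT, cDC1_WT, pDC_WT, with log2FC 0.94 for cDC2_WT over pDC_WT (adjusted p = 1.72e-11) and 0.24 for cDC1_WT over pDC_WT (adjusted p = 0.0115). The libraries of cDC1_WT and pDC_WT overlapped for Itgb2, and with total counts alone as scaling this small difference was -0.01, and it missed the threshold with either set of WT replicates alone (adjusted p = 0.0907 with replicates 1 to 4, 0.0617 with replicates 5 to 8). For Itgax the order was the same, and cDC2_WT held 5.49-fold the level of pDC_WT. Itgal ran the other way, lowest in cDC2_WT, then cDC1_WT and highest in pDC_WT, and each step passed (cDC1_WT over pDC_WT log2FC -1.13, adjusted p = 3.41e-08; cDC1_WT over cDC2_WT 0.63, adjusted p = 0.000393, with overlapping libraries). Itgam was higher in cDC2_WT than in pDC_WT with log2FC 8.51 (adjusted p = 2.57e-12), a size that rests on the few reads in pDC_WT: it was 7.53 with WT replicates 1 to 4 alone and 11.6 with WT replicates 5 to 8 alone. Its small difference between cDC1_WT and pDC_WT (1.41 CPM in cDC1_WT, 0.401 CPM in pDC_WT, adjusted p = 0.0246) was lost without cDC1_WT replicate 2 (adjusted p = 0.0685) or replicate 7 (0.0765), with WT replicates 1 to 4 alone (0.493) and with total counts alone (0.051), and the libraries overlapped. Icam1 was highest in cDC1_WT, then cDC2_WT, then pDC_WT (cDC1_WT over cDC2_WT log2FC 0.47, adjusted p = 0.0031, with overlapping libraries). Between cDC1_WT and cDC2_WT, 6 of 7 members were called, 2 higher and 4 lower in cDC1_WT, where 46.2% of all tested genes were called (22.8% higher, 23.4% lower), and Itgad was not (log2FC -0.81, 95% interval -1.56 to -0.05, adjusted p = 0.0895), which passed without cDC1_WT replicate 7 (adjusted p = 0.0335), with total counts alone (0.0494) and with WT replicates 1 to 4 alone (0.0398). With WT replicates 5 to 8 alone, Icam2 missed the threshold in cDC2_WT versus pDC_WT (adjusted p = 0.0607) and in cDC1_WT versus cDC2_WT (0.0502).

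Because the alpha subunits pair with 1 beta subunit, their levels were also set side by side per length, as CPM per kilobase of annotated exon, which allows comparison between genes. In control pDC the alpha-subunit mRNA was mostly Itgal: its share of the summed level of the 4 alpha subunits was 35.8% ± 6.93 in pDC_TG (SD, n = 4), 27.3% ± 2.57 in cDC1_WT (n = 8), 9.66% ± 0.951 in cDC2_WT (n = 8) and 68.5% ± 2.96 in pDC_WT (n = 8). The Itgax share was 53.1% ± 5.50 in pDC_TG, 72.2% ± 2.72 in cDC1_WT, 76.8% ± 1.65 in cDC2_WT and 28.8% ± 3.53 in pDC_WT. Itgam made up 3.95% ± 1.07 in pDC_TG, 0.238% ± 0.228 in cDC1_WT, 13.3% ± 1.53 in cDC2_WT and 0.0613% ± 0.102 in pDC_WT. Itgad made up 7.13% ± 2.34 in pDC_TG, 0.317% ± 0.253 in cDC1_WT, 0.284% ± 0.0823 in cDC2_WT and 2.61% ± 0.848 in pDC_WT. Itgax was thus the leading alpha transcript in every pDC_TG library and Itgal in every pDC_WT library. A value over the members has no test here, because the members were chosen with results known.

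Relative to the beta subunit, alpha-subunit mRNA was most abundant in pDC_TG. The summed alpha level divided by the Itgb2 level, both in CPM per kilobase, was 1.31 ± 0.115 in pDC_TG, 0.653 ± 0.0582 in cDC1_WT, 0.744 ± 0.108 in cDC2_WT and 0.678 ± 0.128 in pDC_WT. The lowest pDC_TG library, at 1.22, was above the highest of the 24 WT libraries, at 0.900. The 3 WT populations overlapped in this ratio although their Itgb2 levels per kilobase differed, at 194 ± 16.4 in cDC1_WT, 317 ± 37.5 in cDC2_WT and 165 ± 19.6 in pDC_WT, with 123 ± 16.0 in pDC_TG. The absolute value depends on the lengths used: with the longest transcript of each gene it was 1.53 in pDC_TG, 0.767 in cDC1_WT, 0.853 in cDC2_WT and 0.814 in pDC_WT, in the same order for pDC_TG against each WT group.

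**Figure D3:**
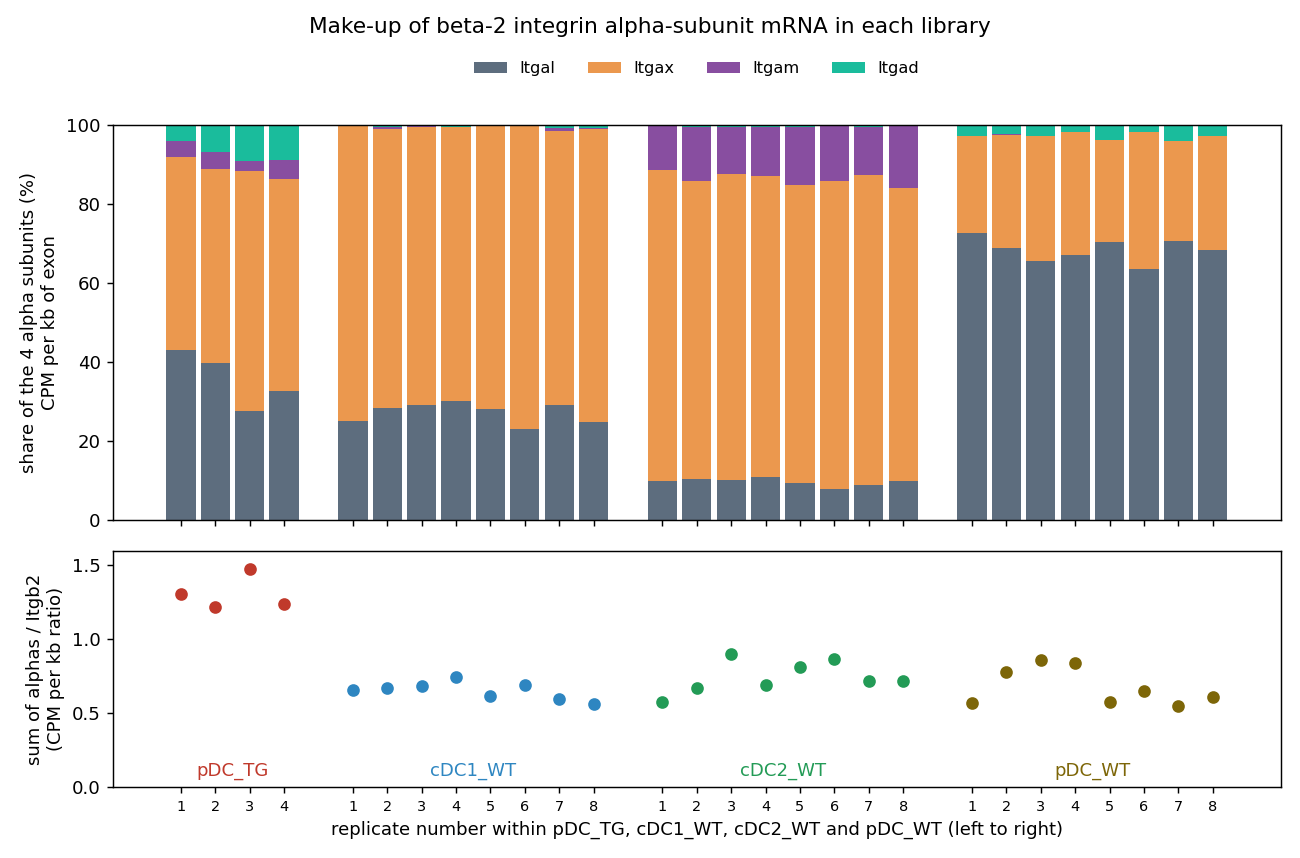
Top, share (%) of each alpha subunit in the summed CPM per kilobase of Itgal, Itgax, Itgam and Itgad, 1 bar per library; bottom, the summed alpha level divided by that of Itgb2 in the same library. Itgal fills most of each pDC_WT bar and Itgax most of the conventional DC bars; the 4 pDC_TG points of the ratio lie above 1.2 and all WT points at 0.900 or below.

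Itgam, Itgax and Itgad lie next to each other on chromosome 7 of GRCm38, at 128062640 to 128118491, 128129547 to 128150657 and 128154376 to 128223816 on the plus strand, and Itgal lies apart from them at 127296260 to 127335138. Itgb2 is on chromosome 10 (77530252 to 77565708), Icam1 on chromosome 9 (21015985 to 21028817) and Icam2 on chromosome 11 (106377656 to 106388075), and all are annotated as protein coding. The adjacent alpha genes were the members that rose in pDC_TG, and the separate one, Itgal, did not pass. The part of any transgene copy of this locus in these counts was not tested. Within 200 kb of the adjacent trio, 14 other genes passed the filter. Of these, 1 rose (Cox6a2, log2FC 1.42, SE 0.25, adjusted p = 0.000113), 1 fell and 12 did not pass, where 14.8% of all tested genes were called. The fall was that of Rgs10, a regulator of G protein signalling, at 23.8 ± 5.96 CPM in pDC_TG and 107 ± 26.5 CPM in pDC_WT (log2FC -2.17, SE 0.19, adjusted p = 5.93e-10). The next tested gene below Itgam, Pycard, which encodes the inflammasome adaptor ASC, was at 135 ± 30.5 CPM in pDC_TG and 160.1 ± 24.7 CPM in pDC_WT (log2FC -0.24, adjusted p = 0.288), and was named after its values were seen. Within 200 kb of Itgal, none of 20 other tested genes was called by edgeR.

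**Figure D4:**
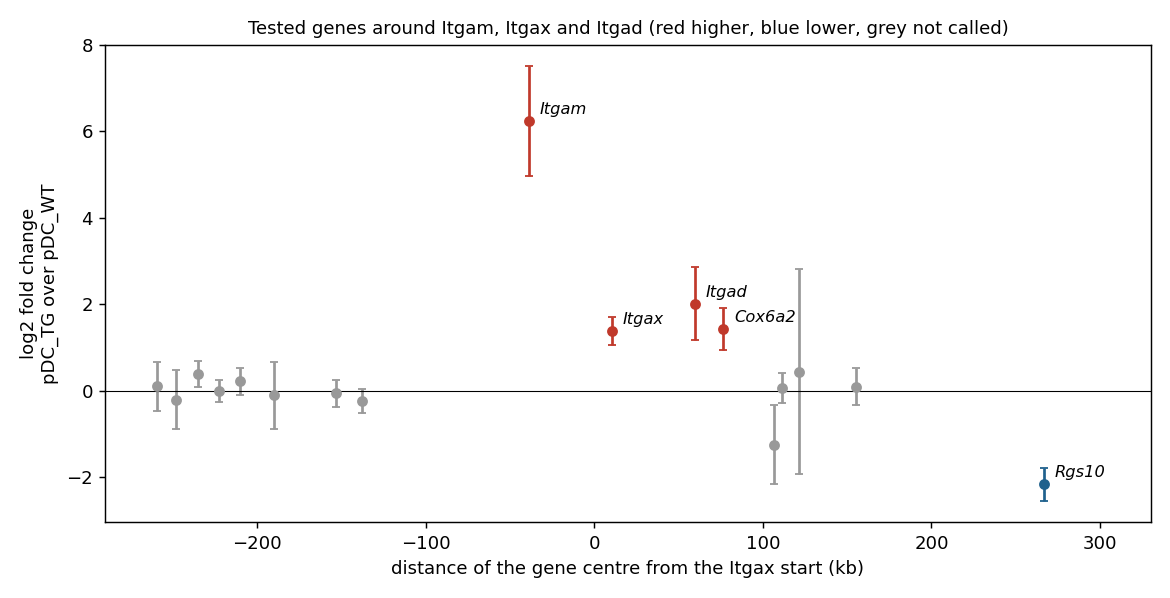
Log2 fold change of pDC_TG over pDC_WT, with its 95% interval, for the tested genes within 200 kb of Itgam, Itgax or Itgad, by distance of the gene's centre from the Itgax start in kb. The higher genes (red) are Itgam, Itgax and Itgad, which sit side by side, and Cox6a2, which lies within the span of Itgad on the opposite strand. Rgs10 (blue) is lower and the other 12 genes (grey) were not called.

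Promoter sequence was at hand for Itgam, Itgax and Icam1 and for no other member, and the 250 bases before each start are shown. Itgam and Itgax were higher in pDC_TG than in pDC_WT, and Icam1 was lower. Sequences are from RefSeq on GRCm38.p6, read 5′ to 3′ on the plus strand, at chr7:128062390-128062639 for Itgam, chr7:128129300-128129549 for Itgax and chr9:21015690-21015939 for Icam1, where the starts are those of RefSeq and not of the gene positions above. Capitals mark the PU.1 core GAGGAA, on either strand, in Itgam, and the NF-kappaB element GGAAATTCC in Icam1.
Itgam: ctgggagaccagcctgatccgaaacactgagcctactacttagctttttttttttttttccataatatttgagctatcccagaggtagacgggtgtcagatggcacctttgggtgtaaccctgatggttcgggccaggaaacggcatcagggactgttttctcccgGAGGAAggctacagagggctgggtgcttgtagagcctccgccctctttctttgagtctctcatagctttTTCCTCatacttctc
Itgax: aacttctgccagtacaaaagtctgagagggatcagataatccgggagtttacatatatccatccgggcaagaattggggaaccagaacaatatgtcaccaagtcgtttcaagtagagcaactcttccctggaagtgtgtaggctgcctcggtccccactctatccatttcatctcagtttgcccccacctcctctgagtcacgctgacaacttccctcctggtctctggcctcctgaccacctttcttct
Icam1: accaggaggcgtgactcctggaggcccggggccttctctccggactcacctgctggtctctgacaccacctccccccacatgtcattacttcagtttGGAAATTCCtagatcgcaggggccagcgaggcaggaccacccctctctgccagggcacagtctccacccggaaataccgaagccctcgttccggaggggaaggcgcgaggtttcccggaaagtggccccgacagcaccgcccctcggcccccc

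The Itgam window held GAGGAA at position -84 on the plus strand and at -15 on the minus strand, where positions count back from the start, and 23.3% of 32851 promoter windows of the same length held it on either strand. The Itgax and Icam1 windows held none. The GGAA core of ETS factors, which lies within GAGGAA and within GGAAATTCC, matched 4 times in Itgam, 4 times in Itgax and 7 times in Icam1, and 93.4% of all windows held it. GGAAATTCC was at -153 in Icam1 and in 0.286% of all windows. The composite ETS-IRF element, a known binding form of PU.1 with IRF4 or IRF8, was in none of the 3 windows and in 2.3% of all. The interferon response element was in none of the 3 and in 2.98% of all, and the RUNX core TGTGGT in none and in 14% of all. A match is a description of these letters and not a measured site.

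The machinery around the integrins moved in both directions. Of 16 genes of integrin activation, the switch to the ligand-binding state from inside the cell, 3 rose and 3 fell in pDC_TG and 10 did not pass. Their median log2FC was -0.01, against 0.00 over all tested genes, of which 14.8% were called. The list holds genes that restrain this switch beside genes that promote it, so the counts give no direction of activation. Flna, which encodes the actin crosslinker filamin A that competes with talin for integrin tails, rose to 264 ± 75.8 CPM in pDC_TG, against 152 ± 37.2 CPM in pDC_WT (log2FC 0.80, adjusted p = 0.00264). Cyth1, whose product cytohesin-1 binds the CD18 tail, rose to 122 ± 14.3 CPM in pDC_TG, against 93.5 ± 9.70 CPM in pDC_WT (log2FC 0.38, adjusted p = 0.0108), and the RAPL gene Rassf5 rose as well (log2FC 0.26, adjusted p = 0.0213). Skap2, an adaptor of integrin activation in myeloid cells, fell to 156 ± 6.64 CPM in pDC_TG, against 249.6 ± 31.0 CPM in pDC_WT (log2FC -0.68, adjusted p = 2.54e-07). The other falls, named after their values were seen, were Sharpin (log2FC -0.38) and Dok1 (log2FC -0.61). The genes of talin-1 and kindlin-3, Tln1 and Fermt3, which bind the beta tail directly, were at 257 ± 87.0 and 241 ± 27.2 CPM in pDC_TG and at 328 ± 123 and 264 ± 51.8 CPM in pDC_WT (adjusted p = 0.431 and 0.561). The number called in this list was 3 without pDC_TG replicate 1 and 3 without pDC_TG replicate 4.

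Of 17 genes that signal from bound integrins, 3 rose and 2 fell in pDC_TG and 12 did not pass (median log2FC 0.02). Of all tested genes, 14.8% were called. The SLP-76 gene Lcp2 rose to 67.4 ± 13.9 CPM in pDC_TG, against 30.9 ± 7.28 CPM in pDC_WT (log2FC 1.12, adjusted p = 8.89e-07). In conventional DCs Lcp2 averaged 144 CPM in cDC1_WT and 369.7 CPM in cDC2_WT. Tyrobp, which encodes the signalling adaptor DAP12, fell to 924 ± 271 CPM in pDC_TG, against 1557 ± 292 CPM in pDC_WT (log2FC -0.75, adjusted p = 0.00118), and the exchange factor gene Vav3 fell too (log2FC -0.95, adjusted p = 0.000935). Ptk2b, the gene of the kinase PYK2, rose as well (log2FC 0.42, adjusted p = 0.0204), and was named after its value was seen.

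Of 11 further ligands of beta-2 integrins, 8 passed the filter, of which 2 rose in pDC_TG, 0 fell and 6 did not pass (median log2FC -0.77). For this list and those that follow, the share called over all tested genes was 14.8%. Fcer2a, which encodes the low-affinity IgE receptor CD23, a ligand of CD11b and CD11c, was at 7.21 ± 3.12 CPM in pDC_TG and 1.14 ± 1.18 CPM in pDC_WT (log2FC 2.64, adjusted p = 0.00274). The complement gene C3, whose cleaved product is bound by CD11b and CD11c, was called at very low levels, 0.256 ± 0.469 CPM in pDC_TG and 0.0156 ± 0.0293 CPM in pDC_WT. The number called in this list was 1 without pDC_TG replicate 4 and 0 against WT replicates 5 to 8 alone. Among 5 genes that link ICAMs to the actin skeleton, 1 fell: Actn1, which encodes alpha-actinin-1, was at 2.05 ± 0.948 CPM in pDC_TG and 10.6 ± 2.63 CPM in pDC_WT (log2FC -2.37, SE 0.30, adjusted p = 5.72e-07). Among 7 transcription factors with described sites in leukocyte integrin promoters, 1 rose, the PU.1 gene Spi1 (log2FC 1.07, SE 0.08, adjusted p = 1.28e-11), whose mean was 201 CPM in pDC_TG, 539 CPM in cDC1_WT, 711 CPM in cDC2_WT and 96.2 CPM in pDC_WT.

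For each member, the genes with the most similar pattern were found by the root mean square difference of log2(CPM + 1), centred on the mean of the 28 libraries, among 8827 genes with a mean of at least 10 CPM in a group. These distances describe likeness over libraries that share 4 groups, so they mostly reflect the group means. Nearest to Itgb2 were Traf2, Nfkb2 and Cyld, at 0.178, 0.188 and 0.193 log2 units. Nearest to Itgax were Prkch, Susd3 and Cd244, at 0.268, 0.317 and 0.353, and nearest to Itgal were Arhgap17, Aldh2 and Palm, at 0.228, 0.248 and 0.256. Itgam had no close match, with Dscam, Cd300lb and Il1r2 at 0.859, 1.13 and 1.19. Dscam averaged 15.1 CPM in pDC_TG, 0.0109 CPM in cDC1_WT, 57.5 CPM in cDC2_WT and 0.597 CPM in pDC_WT. Nearest to Itgad were Ephb6, Dpt and Amdhd1, at 0.567, 0.569 and 0.584, each with its highest group mean in pDC_TG. Nearest to Icam1 were Dok1, Erlin2 and Abcg1, at 0.253, 0.269 and 0.274, and nearest to Icam2 were Ly86, Ppfia4 and Cd68, at 0.272, 0.275 and 0.285.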

How the data were processed

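Per the labels' protocols, libraries came from 4 ng of RNA by SMART-Seq v4 and were read as single 75 bp ends. The reads carry no strand, and counts include PCR duplicates, so they are not independent molecules. The submitters' processing notes name mm10 with Trimmomatic 0.35, TopHat2 2.1.0, FastQC 0.11.4 and SAMtools 0.1.18. Neither the counting program nor its annotation was given in the sources used here. Deposited values are whole-number counts per gene symbol, 1 set per library, and lines for reads outside genes (8.23% to 18.7% of reads counted) and ambiguous reads (1.04% to 1.57%) were left out here.

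The main analysis was edgeR 4.0.16 under R 4.3.3. Normalisation was by TMM, filterByExpr kept genes by group (count of 10, total of 15), and all 28 libraries entered a single quasi-likelihood model with robust dispersion and no covariate. The 6 comparisons were tested two-sided at an adjusted p under 0.05. The standard error (SE) is the log2 fold change (log2FC) over the root of its F statistic, and 95% intervals extend 1.96 SE to each side. DESeq2 1.42.0, other scalings, filters and subsets of libraries were alternatives. Within groups, the most similar libraries differed by a chi-square per degree of freedom of 33.6 or more, beyond sampling noise. Positions, exon lengths and overlaps are from GENCODE on GRCm38; of the 7 members, 3 had an entry in the RefSeq promoter table. The members and gene lists were chosen with earlier results of these data known. Named genes are the members, Irf8, in each list up to 4 called genes of smallest adjusted p in pDC_TG versus pDC_WT, called genes within 200 kb of an alpha gene, and the 3 nearest in pattern, without predicted genes; markers are named from their lists. A called gene of the signalling list is counted but not reported here by name.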

Additional observations from a re-analysis of the deposited data

Results flagged for a closer look

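Among 48 sets of values (7 members and 5 alpha-subunit quantities in each of 4 groups) examined for a library far from the rest of its group, 1 was found. Itgam in pDC_TG replicate 3 was at 19.1 CPM, while the other 3 pDC_TG libraries lay between 35.5 and 36.5 CPM, and the gap was 0.939 of the range of the group. Chance puts about 1 in 20 groups past this limit. The same library was also the lowest of pDC_TG for Itgal, Itgb2 and Icam1 and the highest for Itgax, Itgad and Icam2.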

How the results depend on the processing

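Over all member fold changes and alternatives, 928 values kept their direction and call, 27 lost a call, 6 gained one and 5 changed sign. The sign changes were near 0: with total counts alone Itgb2 in cDC1_WT versus pDC_WT was -0.01, Itgax in pDC_TG versus cDC1_WT 0.18 and Icam2 in pDC_TG versus cDC2_WT 0.10; with WT replicates 5 to 8 alone Itgax in pDC_TG versus cDC1_WT was 0.04; and Icam2 in pDC_TG versus cDC2_WT was 0.00 without pDC_TG replicate 2 (leave-one-out range -0.18 to 0.00). In pDC_TG versus pDC_WT, Itgal gained a call with WT replicates 1 to 4 alone (log2FC -0.63). With WT replicates 5 to 8 alone, Itgb2 (-0.32) and Icam2 (-0.57) lost theirs. Leaving out 1 library at a time gave -0.56 to -0.26 for Itgal and -0.76 to -0.57 for Icam2. Against a 1.5-fold change, Itgb2 (-0.42), Icam1 (-0.67) and Icam2 (-0.67) lost their calls, 3 members and 531 genes were called, and the lists kept 0 (activation), 2 (signalling) and 1 (other ligands). Genes called against that change were 4777 in cDC1_WT versus pDC_WT, 4390 in cDC2_WT versus pDC_WT, 2746 in cDC1_WT versus cDC2_WT (2 members), 4359 in pDC_TG versus cDC1_WT (3 members) and 3612 in pDC_TG versus cDC2_WT. With WT replicates 1 to 4 alone, 3921 genes were called in cDC1_WT versus cDC2_WT. The other-ligand count was 1 with only the 2 groups compared, 1 with WT replicates 1 to 4 and 0 with WT replicates 5 to 8. Leaving out 1 library gave 3 to 7 called activation genes and 1 to 3 called other ligands. With longest transcripts the alpha to Itgb2 ratio was 1.53 in pDC_TG, 0.767 in cDC1_WT, 0.853 in cDC2_WT and 0.814 in pDC_WT. The causes of these shifts were not tested.

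Whether same-numbered libraries of the WT groups are pairs is not settled by the labels. Libraries of pDC_TG and pDC_WT cannot share animals, because only pDC_TG mice carried the Cre. Deviations from group means of pDC_TG and pDC_WT libraries of the same number correlated at -0.0404 to 0.0406, and 0 of 4 correlated best with its own number. Among WT groups the correlations were 0.0492 to 0.22, with 5 of 8 (cDC1_WT and pDC_WT), 5 of 8 (cDC2_WT and pDC_WT) and 7 of 8 (cDC1_WT and cDC2_WT) over 0.1. There 7 of 8, 8 of 8 and 8 of 8 libraries correlated best with their own number, a hint from the data and not from the design. With the replicate number as a block, Itgal in pDC_TG versus pDC_WT had log2FC -0.57 (adjusted p = 0.00485), and 1 other ligand was called. That block sets pDC_TG beside WT replicates 1 to 4, where Itgal in pDC_WT was higher than in replicates 5 to 8. It is no pairing of pDC_TG with pDC_WT animals. Levels near 0, such as Itgam in pDC_WT, are limited by few reads.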
